A study of Bos taurus with 6 samples.

Results

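The granins and the enzymes that process prohormones were described here through 10 genes, SCG2, SCG3, SCG5, CHGA, CHGB, VGF, PCSK1, PCSK2, CPE and PAM. The array held 12 probes for them, out of 43794 bovine probes and 21790 that carry a gene symbol. SCG3 and SCG5 had a pair of probes each, called brighter and dimmer below by their mean signal, and the other genes had a single probe. The genes were chosen on the comparison itself, since SCG2 had the largest ratio of all tested probes, so the rFSH ratio of each is given as a description with no p-value, and a count of members past the threshold is printed only beside that over all probes.

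Granins are acidic proteins of the regulated secretory pathway that gather in the trans-Golgi network and take part in forming dense-core granules, the stores from which endocrine and nerve cells release peptides on demand. Convertases cut prohormones, and some granins, at pairs of basic residues inside the granule, a carboxypeptidase then trims the basic residues, and an amidating enzyme finishes many of the peptides. Cumulus cells are the somatic cells around the oocyte, and they respond to follicle-stimulating hormone through its receptor.

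The cells came from cumulus-oocyte complexes of Holstein ovaries, which matured in culture in a medium with rFSH (the recombinant hormone, 0.5 µg/mL) or in one without. Both groups had 1 µg/mL estradiol in the medium. The design had 3 biological replicates, numbered 2 to 4, and each was placed on 2 arrays with the Cy3 and Cy5 dyes exchanged, which gave 6 arrays with an rFSH channel and a control channel. The control carries a 6 h label, although the protocol describes 22 to 24 h of culture without naming a shorter one. Equal times in both groups are thus not established by the labels, and a difference in time cannot be told apart from that in rFSH.

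A ratio below is log2 of rFSH over control after normalization, averaged over both arrays of a replicate, and its error is the SD over the 3 replicates. A raw signal is called above the limit where it was over a limit set from that channel's negative control spots, their mean with 2 SD added, and signals are given as multiples of that limit. Between 38.2% and 83.3% of all bovine probes were above the limit in a channel. The lowest share was in the control channel of the replicate 2 array with rFSH in Cy3. Across all tested probes the median SD over replicates was 0.18 on the log2 scale.

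Of the 10 genes, 8 were tested, through 9 of the 12 probes. The 3 untested probes were those of PCSK1 and PCSK2 and the dimmer SCG3 probe, which were above the limit on fewer than 3 arrays in either channel. SCG2, SCG3, SCG5 and PAM were above the limit on all 6 arrays in both channels. Among the 9 tested probes, 1 was higher with rFSH and 0 were lower in limma at an adjusted p under 0.05, beside 6.34% of the 34821 tested probes called in either direction. At an unadjusted p under 0.05 the counts were 2 higher and 0 lower, beside 25.3% of all tested probes in either direction. The genes were picked from this contrast, so nothing is read from these counts.

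SCG2 (secretogranin II), the precursor of the peptide secretoneurin, had the largest ratio. In the rFSH channel its raw signal was 7958 and 9022 on the replicate 2 arrays, 7939 and 9467 on those of replicate 3 and 14242 and 16258 on those of replicate 4, with rFSH in Cy5 named first each time. In the control channel of the same arrays it was 337, 359, 336, 337, 272 and 316. The channels did not overlap, and both rFSH signals of replicate 4 exceeded those of the other replicates while its control signals were the lowest.

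Against the limit, the SCG2 signal in the rFSH channel was 36.3 times as high on the lowest array, 46.8 times at the median and 94.5 times on the highest. The control channel reached 1.36, 1.85 and 2.34 times the limit, close above the negative controls. Up to 83.3% of all bovine probes were above the limit in a channel. Such a signal thus does not by itself establish SCG2 transcripts without rFSH. None of the SCG2 spots was saturated or ignored by the image software.

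**Figure D1:**
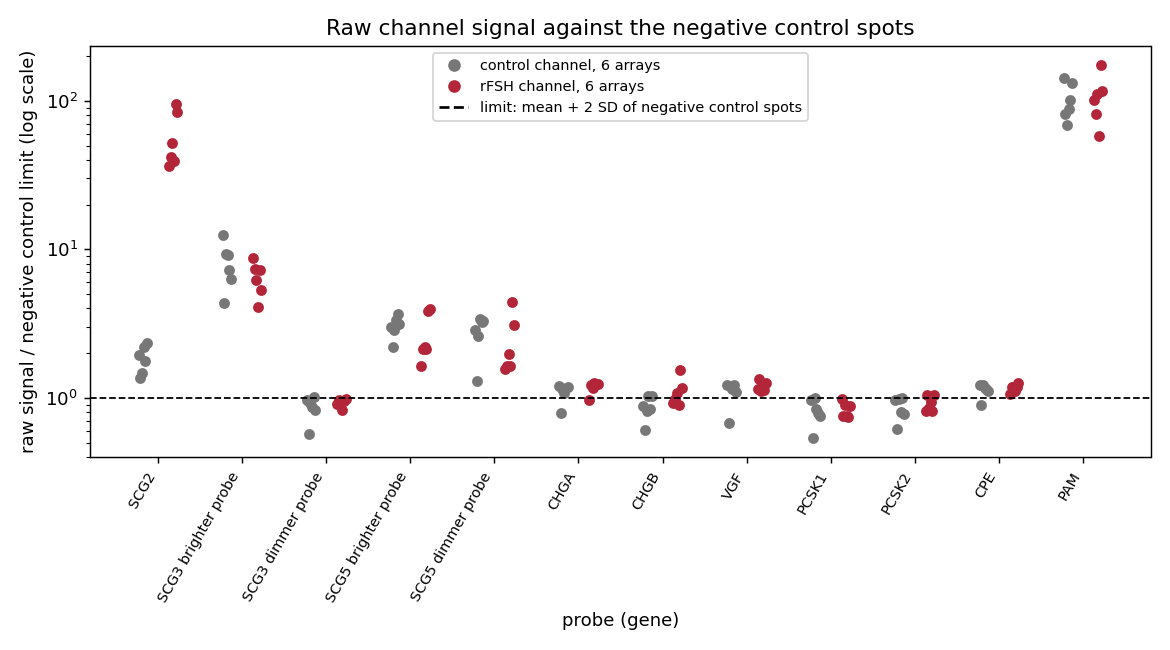
Raw signal of each granin and processing probe divided by the negative control limit of its channel (log axis), with 1 point per array, 6 for the control channel in grey and 6 for the rFSH channel in red. SCG2 separates the channels by more than an order of magnitude, PAM is far above the limit in both, and CHGA, CHGB, VGF, PCSK1, PCSK2 and CPE lie near the dashed limit.

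The log2 ratio of SCG2 was 5.24 and 4.87 on the replicate 2 arrays, 5.54 and 5.00 on those of replicate 3 and 6.24 and 5.61 on those of replicate 4. Averaged by replicate these were 5.05, 5.27 and 5.93. The mean of 5.42 ± 0.45 (SD, n = 3) equals a 42.7-fold higher normalized signal with rFSH, over a control signal close to the limit. In the authors' deposited table, turned by the dye labels, the SCG2 ratio was 5.26.

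The array with rFSH in Cy5 had the higher SCG2 ratio in all 3 replicates, by 0.37, 0.55 and 0.63. The dye effect of SCG2, Cy5 over Cy3, was 0.26 ± 0.07 (SD, n = 3) and did not pass in limma (adjusted p = 0.0544). The gap between orientations was therefore small beside the ratio, which was 5.67 from the Cy5 arrays and 5.16 from the Cy3 arrays. In these bulk samples a change in RNA per cell and a change in the share of cells that hold the transcript cannot be told apart.

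The next named genes by size of increase, among those with the same sign on all 6 arrays, were PLK2 at 3.98 ± 0.35, TNFAIP6 at 3.77 ± 0.18 and CXCR4 at 3.74 ± 0.54. The lowest SCG2 array, at 4.87, exceeded the highest array of PLK2, at 4.54, of TNFAIP6, at 4.05, and of CXCR4, at 4.41. These values order changes of separate probes and not their levels.

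CHGB (chromogranin B), a granin of endocrine granules, had the largest ratio of the other members, at 0.41 ± 0.23 (SD, n = 3). Its ratio on arrays with rFSH in Cy5 was 0.47, 0.71 and 1.34 in replicates 2, 3 and 4. With rFSH in Cy3 it was 0.32, -0.31 and -0.04, so the sign was not the same on all arrays, and the mean was 0.84 over Cy5 arrays and -0.01 over Cy3 arrays. The probe was brighter in Cy5 by 0.42 ± 0.31, the single dye effect that passed among the 9 tested member probes (adjusted p = 0.0484 in limma), beside 12.3% of all tested probes called for a dye effect.

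That dye call was lost without replicate 3 and without replicate 4, when 0 of the 9 probes passed, while 3 passed without replicate 2. CHGB was above the limit on 3 arrays in the rFSH channel and on 2 in the control channel, so it was tested only through the rFSH channel. Its signal ran from 0.90 to 1.55 times the limit with rFSH and from 0.61 to 1.03 times without, and the channels overlapped.

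CHGA (chromogranin A), the first granin described and a common marker of endocrine tissue, was above the limit on 5 arrays in each channel. Its signal lay between 0.97 and 1.26 times the limit with rFSH and between 0.79 and 1.19 times without. The ratios ran from -0.08 to 0.35 over the 6 arrays, with a mean of 0.12 ± 0.13 (SD, n = 3). The channels overlapped and the mean was of the size of its SD.

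VGF, a granin-like precursor of neuropeptides, was above the limit on 6 arrays with rFSH and on 5 without. Its signal had a median of 1.18 times the limit with rFSH and 1.17 times without. The replicate means were 0.50, 0.06 and -1e-04, and their mean was 0.19 ± 0.27 (SD, n = 3). Replicate 2 was thus the 1 replicate in which VGF was away from 0. The replicate 2 array with rFSH in Cy3 had the highest VGF ratio, at 0.73. Its control channel was the one with the lowest share of probes above the limit.

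SCG3 (secretogranin III), a granin that binds chromogranin A and links it to the granule membrane, was above the limit on all arrays by its brighter probe. That signal was 4.10, 6.74 and 8.75 times the limit with rFSH at the lowest, median and highest array, and 4.35, 8.19 and 12.5 times without. The log2 ratio was 0.17 and 0.34 in replicate 2, -0.64 and -0.56 in replicate 3 and 0.20 and -0.06 in replicate 4. The mean of -0.09 ± 0.45 (SD, n = 3) joins replicates of opposite sign, and within replicates 2 and 3 both dye orientations had the same sign. The dimmer SCG3 probe was above the limit on 0 arrays with rFSH and 1 without, and its ratio was 0.05 ± 0.10.

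**Figure D2:**
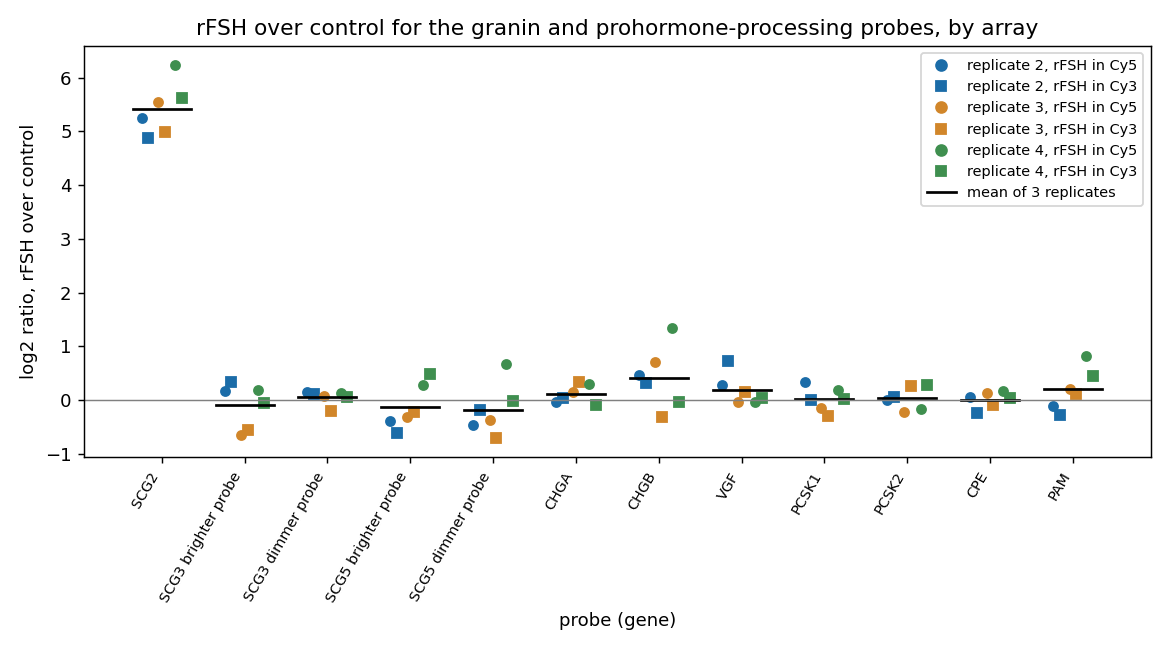
Log2 ratio of rFSH over control for each granin and processing probe on each of the 6 arrays, with colour for the replicate, circles for rFSH in Cy5, squares for rFSH in Cy3 and a black line for the mean of 3 replicates. SCG2 lies between 4.87 and 6.24, while for the other probes the means lie between -0.18 and 0.41.

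Of the enzymes that cut at paired basic residues, PCSK1 (prohormone convertase 1/3) was above the limit on 0 arrays in either channel. PCSK2 (prohormone convertase 2) was above it on 2 arrays with rFSH and on 0 without. The PCSK1 signal did not exceed 0.98 times the limit with rFSH and 0.99 times without, and that of PCSK2 did not exceed 1.04 and 0.99 times. The median PCSK2 signal was 0.90 times the limit with rFSH and 0.89 times without. The arrays on which PCSK2 was above the limit had rFSH in Cy3. Neither PCSK1 nor PCSK2 was thus well above background in either channel, and no fold is given for either.

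SCG5 (also called 7B2) is the granin-family chaperone that binds the PCSK2 proenzyme and assists its maturation. The brighter SCG5 probe had log2 ratios of -0.38 and -0.60 in replicate 2, -0.31 and -0.22 in replicate 3 and 0.28 and 0.49 in replicate 4. The dimmer probe gave -0.46 and -0.18, then -0.37 and -0.71, then 0.68 and -0.02. Both probes placed replicates 2 and 3 below 0 and replicate 4 above 0, with means of -0.12 ± 0.46 and -0.18 ± 0.45 (SD, n = 3).

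The signal of the brighter SCG5 probe was 1.64, 2.16 and 3.97 times the limit with rFSH at the lowest, median and highest array, and 2.21, 3.06 and 3.69 times without. For the dimmer SCG5 probe it was 1.57, 1.81 and 4.40 times with rFSH and 1.31, 3.06 and 3.38 times without. The channels overlapped for both probes.

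CPE (carboxypeptidase E) removes the basic residues that convertases leave at the ends of peptides, and its membrane form takes part in sorting prohormones. It was above the limit on 6 arrays with rFSH and on 5 without, at medians of 1.18 and 1.16 times the limit. The ratio was 0.01 ± 0.10 (SD, n = 3), from -0.24 to 0.18 over the arrays. With rFSH in Cy5 alone it was 0.12 and with rFSH in Cy3 alone -0.10, and the dye effect did not pass (adjusted p = 0.317 in limma).

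PAM (peptidylglycine alpha-amidating monooxygenase), the enzyme that makes the amide at the end of many peptide hormones, was far above the limit. Its signal was 58.3, 106 and 175 times the limit with rFSH at the lowest, median and highest array, and 68.3, 94.6 and 143 times without, so the channels overlapped. The log2 ratio was -0.11 and -0.28 in replicate 2, 0.21 and 0.12 in replicate 3 and 0.82 and 0.44 in replicate 4. PAM was below 0 on both arrays of replicate 2 and above 0 on the other 4, and its mean was 0.20 ± 0.42 (SD, n = 3). Without replicate 4 the mean was -0.02.

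Among the tested probes, replicate 4 gave the highest replicate mean for SCG2, CHGB, both SCG5 probes, CPE and PAM. It did not for CHGA and VGF, which were highest in replicates 3 and 2, nor for the brighter SCG3 probe, which was highest in replicate 2. Besides SCG2, the tested genes had ratios between -0.12 and 0.41 by their brightest probe, where the median over 13129 named genes was 0.01 and the median absolute ratio 0.19.

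**Figure D3:**
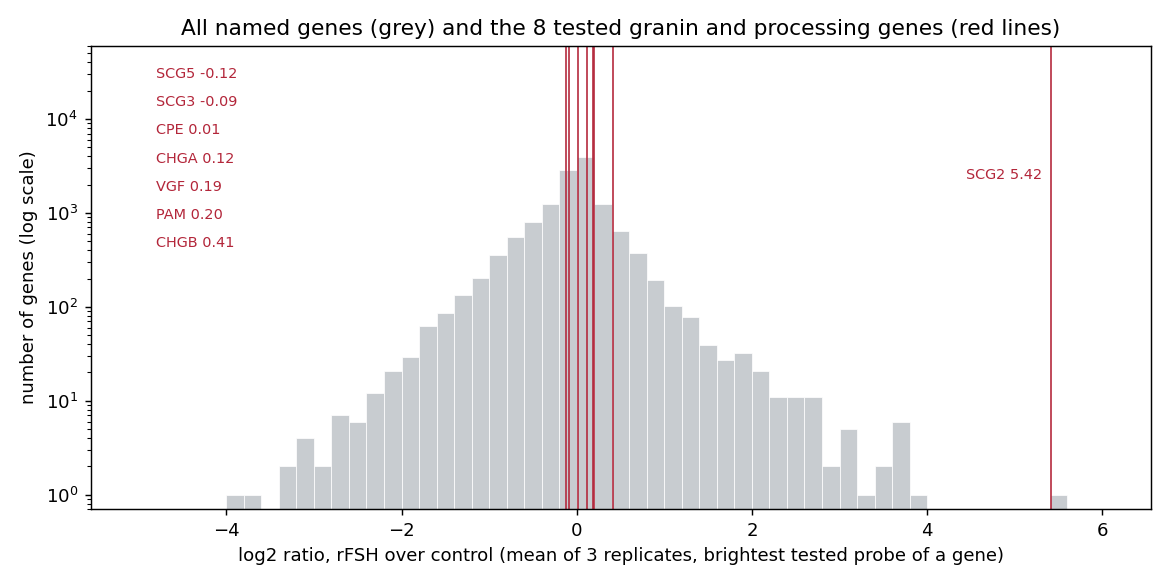
Number of named genes (log axis) by log2 ratio of rFSH over control, mean of 3 replicates and brightest tested probe of a gene, with red lines at the 8 tested granin and processing genes. SCG2 at 5.42 stands beyond the rest of the distribution, and the other 7 lie between -0.12 and 0.41.

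Likeness to SCG2 was measured as the correlation of normalized log2 channel signals over the 12 channels, 6 with rFSH and 6 without, across 13050 named genes. The 12 values come in pairs from the same spots, and a gene with a large and even difference between the groups scores high by construction. The 5 most alike were the interleukin 4 receptor IL4R (r = 0.993), the receptor kinase GRK5 (0.993), the glycosyltransferase B3GALNT2 (0.992), the neutral sphingomyelinase SMPD3 (0.991) and the acyltransferase AGPAT4 (0.991). Their log2 ratios of rFSH over control were 2.54, 2.12, 2.20, 1.98 and 2.04.

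The other granins and enzymes were less like SCG2 in this measure. The correlation was 0.58 for CHGB, 0.52 for CHGA, 0.46 for VGF and 0.36 for PAM. It was -0.13 for the brighter and 0.26 for the dimmer SCG3 probe, -0.18 for each SCG5 probe, 0.11 for CPE, 0.02 for PCSK1 and 0.13 for PCSK2. For dim probes such as CHGB, CHGA and VGF the 12 values lie near the limit and carry little signal.

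Around the members, peptide secretion was followed through 3 lists of other genes, whose rFSH ratios were tested over all probes with limma. Among all named genes, 3.88% were called higher and 4.85% lower with rFSH, and at an unadjusted p under 0.05 the shares were 13.5% and 17.4%. Over all tested probes 1035 were higher and 1173 lower, and when arrays were only centred on their median the split was 777 to 1848. Without replicate 2 or without replicate 3 no probe of the array passed, although 6874 and 7399 had an unadjusted p under 0.05. No call below was thus kept in either fit. Without replicate 4, 510 probes were higher and 675 lower. Each of these fits has fewer values a probe, so the losses cannot tell dependence on a replicate from lost power.

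Of the other convertases and peptide-processing enzymes, 33 of 38 were tested, 0 were higher and 4 were lower, with a median log2 ratio of 0.02. At an unadjusted p under 0.05 there were 5 higher and 7 lower, 15.2% and 21.2% of the tested members, beside 13.5% and 17.4% of all named genes. CPD, a carboxypeptidase of the trans-Golgi network, fell by 1.39 ± 0.53 on the log2 scale (SD, n = 3, adjusted p = 0.0476). Its probe was above the limit on 3 arrays with rFSH and 6 without, and another CPD probe, at -0.10, was not called.

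SPCS3, a subunit of the signal peptidase complex, fell by 0.88 ± 0.28 (adjusted p = 0.0444, limma). IDE, the insulin-degrading enzyme, fell by 0.68 ± 0.18 (adjusted p = 0.0448), and PREP, a prolyl endopeptidase, by 0.55 ± 0.04 (adjusted p = 0.0397). All 4 were lower on 6 of 6 arrays. None of the 4 is a proprotein convertase; SPCS3 works on nascent chains, and IDE and PREP are known for degrading finished peptides. The 29 members that were not called ranged from -0.81 to 0.54, and FURIN, the widely expressed convertase of the trans-Golgi network, was at 0.02 and above the limit on 3 arrays in each channel.

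Many precursors of peptide hormones and neuropeptides share the granule route with the granins. Of 64 precursors listed, 48 were tested, 2 were higher and 0 lower, with a median of 0.12. At an unadjusted p under 0.05 there were 11 higher and 3 lower, 22.9% and 6.25% of the tested members, beside 13.5% and 17.4% of all named genes. ADCYAP1, the precursor of the neuropeptide PACAP, had log2 ratios of 2.15, 2.08 and 3.02 in replicates 2, 3 and 4. It rose 5.34-fold, by 2.42 ± 0.52 on the log2 scale (SD, n = 3, adjusted p = 0.0265 in limma), and was higher on 6 of 6 arrays.

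VIP, the precursor of the related vasoactive intestinal peptide, was above the limit on 6 arrays with rFSH and on 0 without. It therefore passed the filter on low signal only through the channel in which it is high, and its count among the 2 higher precursors carries that selection. Its mean normalized level was 7.46 with rFSH and 6.52 without, in log2 units. Under this background correction VIP was at least 1.78-fold higher with rFSH. For the control, this bound takes on each array the higher of its own signal and the lowest signal above the limit. The limma call (adjusted p = 0.0376) was for the fitted log2 ratio of 0.95, and the bound itself was not tested. The VIP ratio was 0.65 on the log2 scale without background correction and 0.79 with plain subtraction, and neither passed (adjusted p = 0.0652 and 0.0553 in limma). A second VIP probe, at 0.06, was not called. The 46 precursors that were not called ranged from -1.002 to 1.37.

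Of the genes of granule membranes and docking, 25 of 31 were tested, 2 were higher and 2 lower, with a median of 0.03. At an unadjusted p under 0.05 there were 4 higher and 5 lower, 16% and 20% of the 25, beside 13.5% and 17.4% of all named genes. CADPS, which primes dense-core granules for calcium-triggered release, had ratios of 2.55, 1.45 and 1.70 in replicates 2, 3 and 4, and rose 3.73-fold, by 1.90 ± 0.58 on the log2 scale (SD, n = 3, adjusted p = 0.0349 in limma). Its paralog CADPS2 had ratios of -0.99, -2.20 and -2.08 and fell by 1.75 ± 0.67 (adjusted p = 0.0460). Both differences had the same sign on all 6 arrays, in opposite directions for the pair.

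PICK1 and ICA1 encode partner proteins with membrane-bending BAR domains that act in granule formation. PICK1 rose by 0.51 ± 0.04 (SD, n = 3, adjusted p = 0.0444 in limma), with 5 of 6 arrays above 0. The SD of PICK1 is over replicate means and hides a gap by dye, since its ratio was 0.18 with rFSH in Cy5 (adjusted p = 0.443) and 0.84 with rFSH in Cy3 (adjusted p = 0.0319). ICA1 fell by 0.66 ± 0.17 (adjusted p = 0.0449), on 6 of 6 arrays. The 21 genes that were not called ranged from -0.74 to 0.48. They include GNAS by its brightest probe, at 0.04, although another of its 3 probes, at -0.91, was called lower.

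**Figure D4:**
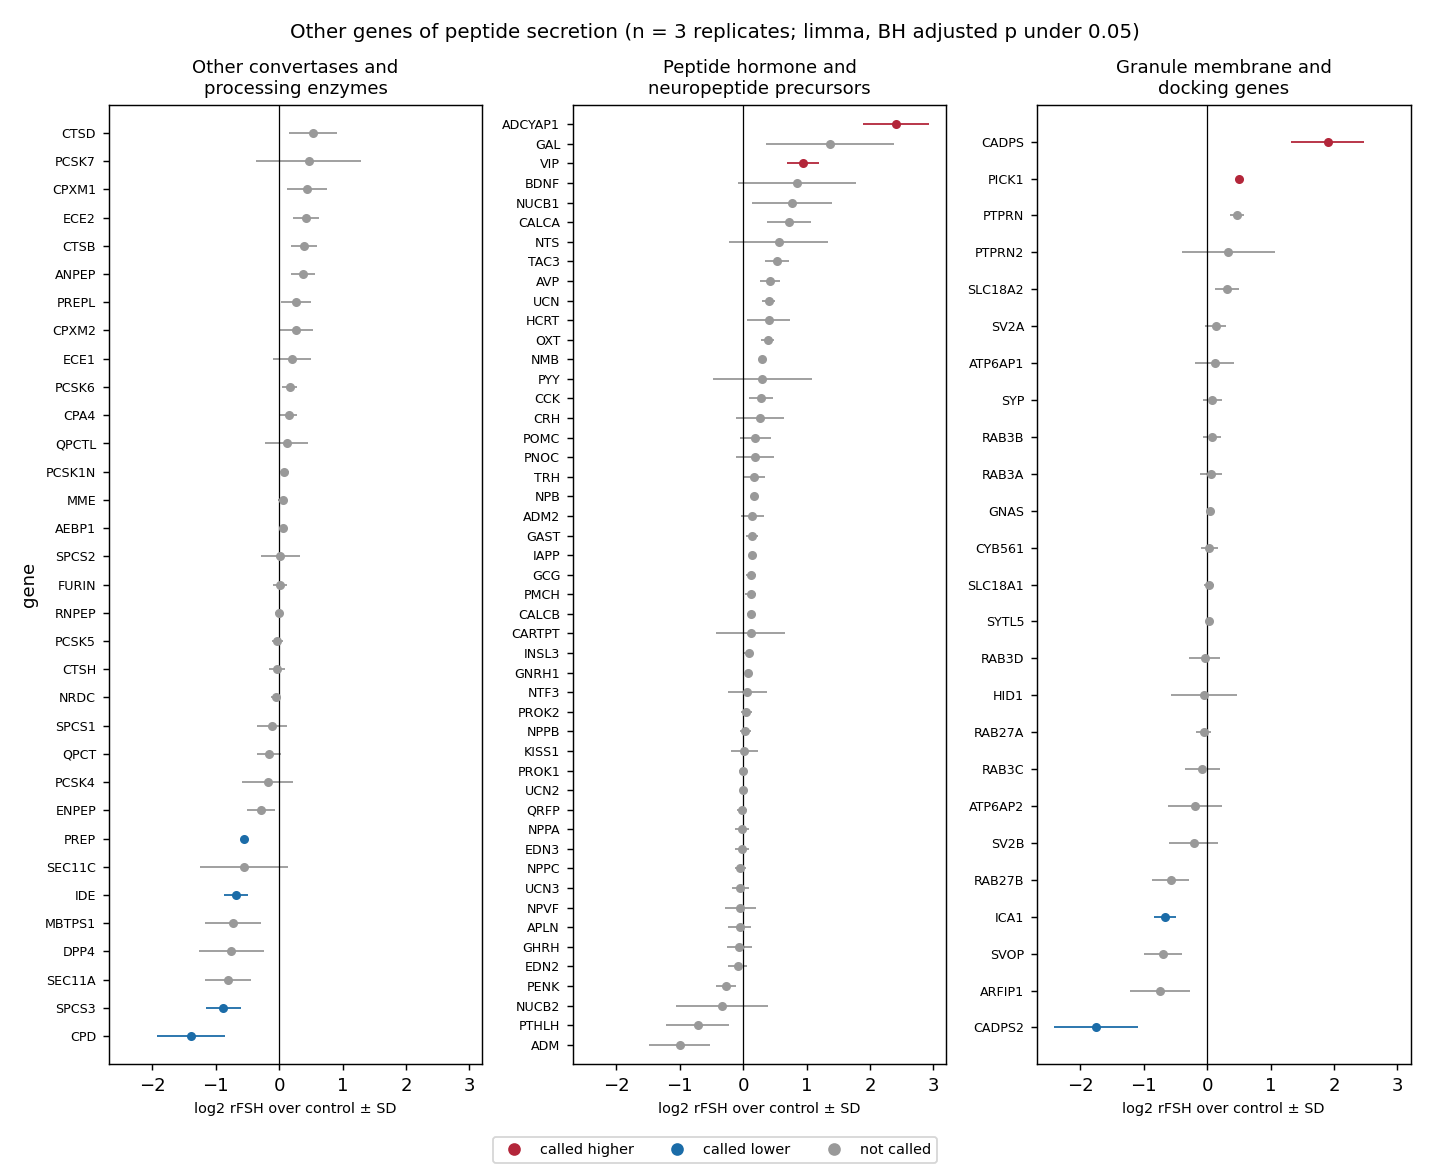
Log2 ratio of rFSH over control (mean of 3 replicates, bars show the SD) for every tested gene of the 3 lists, red where called higher, blue where called lower and grey where not called by limma. Of the called genes, ADCYAP1 at 2.42 and CADPS at 1.90 lie farthest above 0, and CADPS2 at -1.75 and CPD at -1.39 farthest below. VIP was below the limit in all control channels, so its point is a fitted ratio and not a measured fold.

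Of these 10 called genes, ADCYAP1 kept its call under all 12 alternatives that used every replicate (adjusted p up to 0.0468), while the other 9 lost it under at least 2. Leaving out 1 replicate, ADCYAP1 and CADPS passed once in 3, without replicate 4, and the others in none. PICK1 lost the call under 6 of 12 alternatives, with an adjusted p of up to 0.443.

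Markers of cells in which granins are abundant were set beside these values. Of 12 neuroendocrine and neuronal markers, 8 were tested, 1 was higher with rFSH and 0 were lower. Beside this and the marker counts below stand 3.88% of all named genes called higher and 4.85% called lower. The higher one was UCHL1, at 0.66 (adjusted p = 0.0442 in limma), with a median signal of 52.0 times the limit with rFSH and 38.9 times without. The summed signal of all 8, by the medians mostly that of UCHL1, was 46.1 to 73.1 times the limit with rFSH and 36.5 to 53.0 times without. The other 7, none of them called, had median signals between 0.96 and 2.30 times the limit in either channel, with SNAP25 the brightest at 2.30 with rFSH and 1.91 without. TH was too dim to test.

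Of 9 granulosa and cumulus markers, all were tested, and FSHR, at -0.83, and GATM, at -2.61, were lower. The others were not called and had ratios between -0.20 for NR5A2 and 1.44 for AMH. The summed signal of this group was 354 to 604 times the limit with rFSH and 248 to 619 times without. None of 10 tested oocyte markers of 12, nor of 6 tested blood and endothelial markers of 7, was called. The oocyte ratios ran from -0.52 for ZP4 to 0.32 for BMP15, so the lack of a call does not establish equal levels. The summed signals were 12.4 to 33.0 times the limit with rFSH and 10.4 to 40.3 times without for the oocyte, and 9.21 to 33.0 against 5.64 to 24.9 for blood and endothelium. Of 6 theca and stroma markers 2 were called lower, ACTA2 and MYH11. MYH11 was above the limit on 0 arrays with rFSH and 4 without, so it was tested only through the channel in which it is high. The summed signal was 28.6 to 59.4 times the limit with rFSH and 74.9 to 130 times without, with medians of 32.5 and 97.1 times for ACTA2 alone. CYP17A1, INSL3, COL1A1 and DCN had ratios between -0.03 and 0.09 and were not called. The part of these cells in the ratios of the granins and their processing genes was not tested.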

How the data were processed

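Each of 6 arrays held RNA of control and rFSH-treated cumulus cells in separate dyes. Per the labels' protocols the RNA was amplified linearly with T7 polymerase and labelled chemically without an enzyme. Per the file headers the deposited scanner files hold spot and background intensity on a linear scale, not normalized. The authors also deposited tables of log2 Cy5 over Cy3, not turned for dye, with a normalization not stated in what was read here; they correlated with the scanner ratios at 0.976 to 0.992, with column medians from -0.0202 to 0.00122, and served as an alternative.

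Mean intensities were corrected with normexp (offset 50), normalized by loess with a span of 0.3 (limma 3.58.1, R 4.3.3) and turned to rFSH over control by the dye labels. Control spots had weight 0 in loess, and 18 to 64 ignored spots per array were left out. Probes entered the test if at least 3 arrays of the rFSH or of the control channel had a raw signal over the limit, which was the mean of 153 negative control spots with 2 SD added. Averaging the dye-swapped arrays left 3 values a probe, 1 per replicate. A two-sided test of their mean against 0 was made by moderated linear models in limma (lmFit, eBayes), with Benjamini-Hochberg adjustment over all tested probes and a threshold of 0.05. Since every array sets rFSH against control of 1 replicate number, the test is paired. The dye effect was tested likewise on ratios that were not turned. The steps were tested on simulated data. Precision is limited by the number of arrays.

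Symbols came from the platform's probe table, which is old: 21790 probes had 1 symbol, 0 several and 22004 none; 20068 symbols were current in RefSeq, 1644 were updated through synonyms and 78 were found in neither form. For a gene with several tested probes the brightest stands for it. The members and lists were chosen with earlier results of these data known. Named were all members, up to 8 called genes of each list, the 5 genes most like SCG2 and the 3 next below it; UCHL1 and other markers, FURIN and GNAS were named after their values were seen. Searches of promoters for motifs and of proteins for dibasic sites were planned but not run, because no sequence tables were used here. No build is named for the probes, so positions are left out. Alternatives covered background correction, normalization, filter, arrays, pairing, threshold and replicates.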

Additional observations from a re-analysis of the deposited data

Results flagged for a closer look

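The dimmer SCG3 probe had a log2 ratio of -0.1925 on the replicate 3 array with rFSH in Cy3, away from the other 5 arrays, which lay between 0.055 and 0.1428. The probe was above the limit on 0 arrays with rFSH and 1 without. Of the 12 member probes examined for an array that stands apart, this was the 1 found. Chance would give 0.6 if the arrays were independent, which the dye-swapped pairs of a replicate are not.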

How the results depend on the processing

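The SCG2 ratio ran from 5.11 without background correction to 5.73 with an offset of 0, and from 5.16 to 5.60 leaving out a replicate. CHGB moved to 0.79 with an offset of 0, 0.84 on Cy5 arrays and -0.01 on Cy3 arrays, and CPE to 0.12 and -0.10 by dye; PAM was -0.02 without replicate 4. The cause was not tested for any shift here. Counts are given as calls against 1035 probes higher and 1173 lower, the list of convertases and other processing enzymes 0 and 4, none of the 4 a convertase, precursors 2 and 0, and granule genes 2 and 2. Without background correction there were 570 higher and 482 lower probes, 0 processing enzymes lower, 1 precursor higher and 1 granule gene higher and 0 lower. Plain subtraction gave 714 lower probes, 1 processing enzyme lower, 1 precursor higher and 0 granule genes lower. An offset of 0 gave 1863 lower probes and median centring 1848, each with 1 precursor lower. The authors' values gave 1 granule gene lower. Above the limit on every array, 2010 probes, 1 precursor and 4 granule genes were lower and 1 granule gene higher. Arrays with rFSH in Cy5 alone gave 1565 higher and 1833 lower, 2 processing genes higher and 1 precursor lower, and those in Cy3 1581 higher and 5 precursors higher. All 6 arrays with a dye term and the replicate block as random gave 2674 higher and 3381 lower, 3 processing genes higher, 7 precursors higher and 1 lower, and 5 granule genes lower. The unpaired fit with no replicate block gave 472 higher and 549 lower, 1 processing enzyme lower and 0 granule genes higher, and changed no member call. A threshold of 0.1 gave 2330 higher and 2770 lower, 7 precursors higher and 1 lower, and 4 granule genes lower. Without the replicate 2 array with rFSH in Cy3, an alternative chosen after seeing the data, 2 processing genes were higher, 1 precursor lower and 1 granule gene higher. That array correlated with the other array of its replicate at 0.495, where the pairs of replicates 3 and 4 reached 0.722 and 0.708.

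Leaving out each replicate gave 0 to 510 probes higher and 0 to 675 lower, 0 to 1 member higher, 0 to 1 processing enzyme lower, 0 to 1 precursor higher, 0 to 1 granule gene in each direction and 0 to 3 member dye effects. The processing enzyme and the granule gene called lower, both without replicate 4, were not among those called with all replicates. Both zeros for all probes came without replicate 2 and without replicate 3, where 6874 and 7399 had an unadjusted p under 0.05 in limma. Signal near the limit leaves CHGA, CHGB, VGF and CPE with little precision, and PCSK1 and PCSK2 not well above background in either channel. Only 3 replicates, a probe table that is old, 1 probe for most genes and a control time that was not settled limit every ratio.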
